A study of Mus musculus with 3 samples.

Results

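Transcripts of the interleukin 1 (IL-1) family and its receptors were read in single-cell RNA sequencing data of regenerating mouse muscle. The members are Il1a, Il1b, Il1rn, Il1r1, Il1r2, Il1rap, Il1rl1, Il33, Il18 and Nlrp3, chosen by gene symbol, and they make up 10 of the 32285 features in the deposited count tables. All 10 had at least 1 unique molecular identifier (UMI, 1 counted transcript molecule) in each library. The muscle was tibialis anterior of C57BL/6J mice, injured with barium chloride (BaCl2), which kills muscle fibres, and collected on day 4. The 3 groups were young mice given saline (young PBS), old mice given saline (old PBS) and old mice given recombinant Meteorin-like protein (old rMETRNL), a secreted factor, injected into the muscle repeatedly, from the injury into the days after it. Every group carried the same injury, none was uninjured, and each was 1 library of cells pooled from several mice. There are therefore no replicates, and no test between groups was possible. Dividing old PBS by young PBS (the age contrast) addresses how the injured muscle of old mice differs from that of young mice. Dividing old rMETRNL by old PBS (the treatment contrast) addresses what differs after the protein was given. Both contrasts share the old PBS library, so a value that is high or low there moves both in opposite directions. Intervals are 95% intervals that cover counting error only, and a difference outside them describes 3 pools of cells, since how mice vary within a group was not measured.

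IL-1 alpha and IL-1 beta, the products of Il1a and Il1b, are cytokines that start inflammation by binding the receptor chain IL1R1, which then recruits the accessory chain IL1RAP to signal through MyD88 and NF-kB. The antagonist encoded by Il1rn occupies IL1R1 without signalling, and IL1R2 is a decoy receptor that binds ligand and carries no signalling domain. IL-33 is a nuclear protein of stromal and epithelial cells that is released on damage and binds ST2, encoded by Il1rl1, with the same accessory chain. ST2 is known from regulatory T cells and group 2 innate lymphoid cells, and IL-33 from fibro/adipogenic progenitors (FAPs) is known to maintain regulatory T cells in injured muscle. IL-1 beta and IL-18 are made as inactive precursors that caspase-1 cuts within the inflammasome, a complex nucleated by the sensor NLRP3, so that a transcript level does not give the amount of active cytokine.

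On the mouse genome GRCm38, Il1a (2:129299610-129309972) and Il1b (2:129364570-129371139) are neighbours on the minus strand of chromosome 2, where Il1rn (2:24336853-24351494) lies apart on the plus strand. Il1r2 (1:40074079-40125231), Il1r1 (1:40225080-40317257) and Il1rl1 (1:40429570-40465415) form a row of receptor genes on the plus strand of chromosome 1. Il1rap (16:26581704-26730117), Il33 (19:29925114-29960718), Il18 (9:50554827-50581840) and Nlrp3 (11:59541568-59566956) are single genes on the plus strand.

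The 10 members matched 16 RefSeq transcription starts of GRCm38.p6, and 8 of the 250-base stretches just before a start are shown, from Il1a, Il1b, Il1rn, Il33 and Il1rl1. They were chosen because Il1a, Il1b and Il33 carry TATA boxes near their starts, because the starts of Il33 and of Il1rl1, the ligand and receptor of 1 axis, are far apart, and because starts 1 and 3 of Il1rn hold matches. Capitals mark every match to TATAAA (the TATA box), TGANTCA (the AP-1 site), 2 forms of the NF-kB site (which can overlap each other) or GAGGAAGT (the PU.1 site), searched on both strands. No marked match overlaps another.
Il1a, chr2:129309973-129310222, minus strand: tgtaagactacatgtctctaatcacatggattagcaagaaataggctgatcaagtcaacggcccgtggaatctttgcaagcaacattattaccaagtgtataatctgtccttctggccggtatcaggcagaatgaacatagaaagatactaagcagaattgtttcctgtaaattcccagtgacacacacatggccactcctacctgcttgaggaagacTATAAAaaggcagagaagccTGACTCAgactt
Il1b, chr2:129371140-129371389, minus strand: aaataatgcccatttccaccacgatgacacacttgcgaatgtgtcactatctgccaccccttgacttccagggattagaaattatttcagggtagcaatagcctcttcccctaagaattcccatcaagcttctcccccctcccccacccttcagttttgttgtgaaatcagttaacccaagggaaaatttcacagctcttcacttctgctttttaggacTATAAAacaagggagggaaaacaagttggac
Il1rn start 1, chr2:24336610-24336859, plus strand: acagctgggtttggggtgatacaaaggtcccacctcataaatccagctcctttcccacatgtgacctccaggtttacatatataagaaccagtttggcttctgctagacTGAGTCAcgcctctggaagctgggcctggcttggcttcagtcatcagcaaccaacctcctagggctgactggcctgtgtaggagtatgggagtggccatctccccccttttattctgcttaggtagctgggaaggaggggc
Il1rn start 3, chr2:24345121-24345370, plus strand: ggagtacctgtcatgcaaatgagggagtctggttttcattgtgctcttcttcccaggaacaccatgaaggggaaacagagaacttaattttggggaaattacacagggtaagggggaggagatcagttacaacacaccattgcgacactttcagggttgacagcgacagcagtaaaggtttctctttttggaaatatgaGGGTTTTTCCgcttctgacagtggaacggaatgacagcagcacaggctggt
Il33 start 1, chr19:29924863-29925112, plus strand: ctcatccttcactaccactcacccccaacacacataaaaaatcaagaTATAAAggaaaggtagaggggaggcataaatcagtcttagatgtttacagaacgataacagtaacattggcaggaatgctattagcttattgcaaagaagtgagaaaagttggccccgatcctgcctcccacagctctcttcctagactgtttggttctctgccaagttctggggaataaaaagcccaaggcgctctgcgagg
Il33 start 2, chr19:29945540-29945789, plus strand: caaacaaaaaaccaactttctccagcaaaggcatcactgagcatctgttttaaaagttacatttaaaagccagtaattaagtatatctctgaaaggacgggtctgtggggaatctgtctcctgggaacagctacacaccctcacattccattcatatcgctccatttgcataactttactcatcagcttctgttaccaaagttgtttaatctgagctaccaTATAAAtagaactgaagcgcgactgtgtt
Il1rl1 start 1, chr1:40429320-40429569, plus strand: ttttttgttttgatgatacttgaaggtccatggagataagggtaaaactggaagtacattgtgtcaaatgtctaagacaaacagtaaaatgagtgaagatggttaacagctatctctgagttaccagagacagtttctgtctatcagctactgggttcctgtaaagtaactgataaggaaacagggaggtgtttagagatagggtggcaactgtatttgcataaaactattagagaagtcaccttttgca
Il1rl1 start 2, chr1:40439379-40439628, plus strand: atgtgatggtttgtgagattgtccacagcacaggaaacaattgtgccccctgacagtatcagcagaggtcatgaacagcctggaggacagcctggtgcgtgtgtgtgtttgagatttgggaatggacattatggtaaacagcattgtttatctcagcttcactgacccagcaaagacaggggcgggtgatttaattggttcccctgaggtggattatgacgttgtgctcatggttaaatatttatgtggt

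A TATAAA match began 32 bases before the start of Il1a, 31 bases before that of Il1b and 29 bases before start 2 of Il33. Further TATAAA matches lay 203 bases before start 1 of Il33 and 175 bases before Il18, the latter on the other strand. In all, 5 of the 16 member promoters held TATAAA, against 12.4% of 32851 RefSeq promoters of that length. The AP-1 letters lay 12 bases before Il1a as TGACTCA and 141 bases before Il1rn start 1 as TGAGTCA, and 6.75% of all promoters held them. One form of the NF-kB site was met 51 bases before Il1rn start 3 as GGGTTTTTCC and in 1.41% of promoters, while the other form (0.980% of promoters) and GAGGAAGT (2.44%) were in none of the 16. Neither stretch of Il1rl1 held any of the letters searched. These are matches of letters and not measured binding sites, and reads from the 3′ end of a transcript do not tell which start was used.

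The files held 38748 cell barcodes with between 179295668 and 228966697 UMIs a library, and 31805 cells remained after filters on genes, mitochondrial UMIs and doublet calls. Median depth was between 13682.5 (old PBS) and 15084.5 UMIs a cell (young PBS). At most 0.339% of barcodes were shared between a pair of libraries. The cells fell into 18 clusters, from which 12 classes were named by marker genes with the members left out of the clustering, and 8 classes with at least 100 cells in every library were compared. Macrophage/monocyte-like cells were the most abundant class, with 6140 (young PBS), 5916 (old PBS) and 6708 cells (old rMETRNL). FAP-like cells numbered 1642, 1361 and 1710, Dendritic-like cells 660, 431 and 741, and MuSC/myoblast-like cells (muscle stem cells and their dividing progeny) 247, 123 and 250. The ending "-like" marks that a class was named from marker transcripts. Levels are given as CPM, the UMIs of a gene scaled to a common total of all UMIs in the class, and series of 3 values are in the order young PBS, old PBS, old rMETRNL. All 12 macrophage markers and all 10 FAP markers were detected in their own class in each library, but each was also detected in the other class. Macrophage markers summed to 53789, 51279 and 49516 CPM in macrophage/monocyte-like and 581, 636 and 548 CPM in FAP-like cells. FAP markers summed to 40713, 46146.5 and 40311 CPM in FAP-like and 375, 338 and 377 CPM in macrophage/monocyte-like cells. These markers gave the names, so the sums describe the classes and do not test the names. The summed level of 5 stress and early response genes was 3770, 2342 and 3654 CPM in macrophage/monocyte-like cells and 6135, 3206 and 5566 CPM in Dendritic-like cells. In FAP-like cells this sum differed less (5638, 5216 and 5736), but its genes did not move alike. There Hspa1a was 1020, 654 and 1236 CPM, lowest in old PBS, and Egr1 was 1051, 1268 and 1125 CPM, highest in old PBS. In T/NK-like cells the sum was 3687, 812 and 3621 CPM. The part of these genes, which can mark the handling of the tissue, in the differences given here was not tested. In such pooled sums, fewer expressing cells and less RNA per cell cannot be told apart unless the share of cells is given.

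Among the 8 classes with enough cells to compare, 6 members were highest in myeloid cells and 4 in FAP-like cells. Il1a, Il1rn, Il18 and Nlrp3 were highest in macrophage/monocyte-like cells, which held 96.2%, 93.1%, 79.9% and 91.0% of their UMIs in kept cells. Il1b and Il1r2 were highest in Dendritic-like cells. Il1r1, Il1rl1, Il33 and Il1rap were highest in FAP-like cells, with 79.8%, 86.5%, 89.6% and 33.2% of their UMIs. These orders leave out classes with few cells, of which Neutrophil-like cells (68) had higher levels of Il1b, Il1r2, Il1rn and Nlrp3, as well as of Il1rap from 3, 3 and 7 UMIs and over the libraries together of Il1a, from 0, 2 and 10 UMIs with 7 in 1 cell, and Pericyte/smooth muscle-like cells higher levels of Il1r1 and, from 23, 11 and 8 UMIs, of Il1rap. Each level is compared between classes or libraries for 1 gene at a time, and levels of different genes are not ranked. The UMIs of Il1b per UMI of Il1rn are given only to compare that ratio between libraries or cells.

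**Figure D1:**
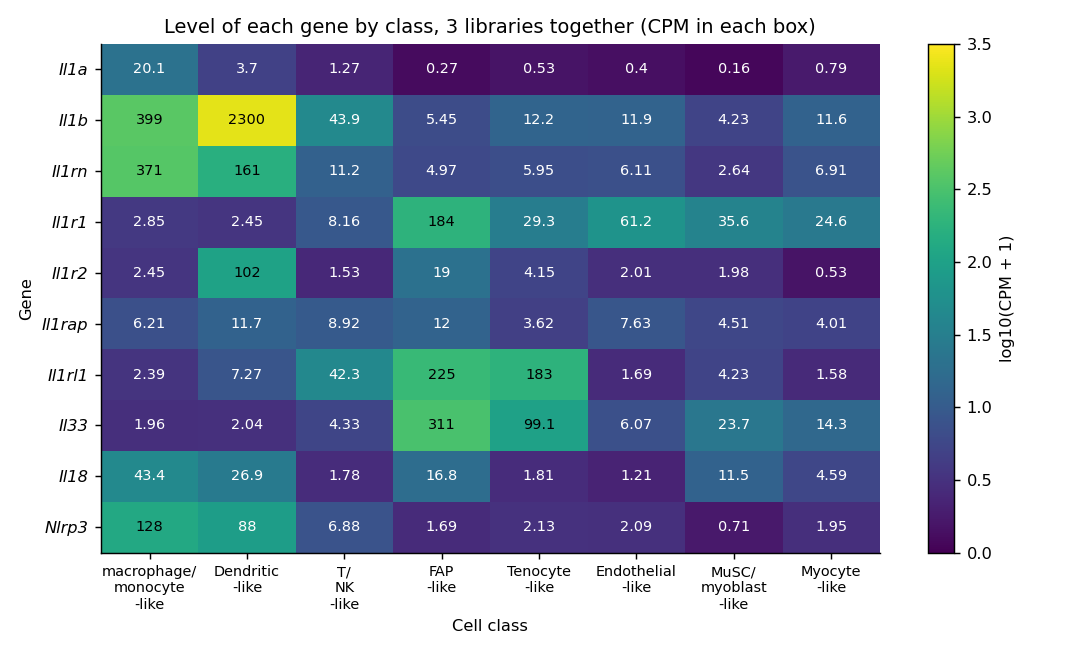
Level of each member (rows) in 8 cell classes (columns) over the 3 libraries together, with the CPM printed in each box and coloured by log10(CPM + 1). Il1a, Il1rn, Il18 and Nlrp3 are highest in the macrophage/monocyte-like column, Il1b and Il1r2 in the Dendritic-like column, and Il33, Il1rl1, Il1r1 and Il1rap in the FAP-like column.

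Il1a had the largest share of its UMIs in 1 class, which also reflects class size. Its level over all libraries was 20.1 CPM in macrophage/monocyte-like cells and 3.70 CPM in Dendritic-like cells, the next class, and no library of the first overlapped a library of the second. FAP-like cells held 32 Il1a UMIs in all. The macrophage/monocyte-like cells of young PBS had 13.9 CPM (1346 UMIs), those of old PBS 28.4 CPM (2765 UMIs) and those of old rMETRNL 18.3 CPM (2021 UMIs). Old PBS was the highest library and young PBS the lowest, and the counting intervals (13.1 to 14.6, 27.3 to 29.5 and 17.5 to 19.1 CPM) did not overlap. The ratio was 2.05 for age (1.92 to 2.19) and 0.645 for treatment (0.609 to 0.683). With each cell thinned to 2000 UMIs, an Il1a UMI was found in 2.84%, 4.83% and 3.48% of these cells (10.6%, 19.9% and 14.8% unthinned). It was found in 0 of 601 thinned MuSC/myoblast-like cells, the class used as background, for an exact upper limit of 0.612%.

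Of the compared classes Dendritic-like cells had the most Il1b, at 2300 CPM against 399 CPM in macrophage/monocyte-like cells, although the latter, being more numerous, held 66.0% of its UMIs and the former 27.0%. In Dendritic-like cells Il1b was nearly level between libraries, at 2128, 2287 and 2459 CPM. Ratios of 1.07 for age (1.05 to 1.10) and 1.08 for treatment (1.05 to 1.10) were beyond counting error, but under other processing they ranged from 0.918 to 1.25 and from 0.981 to 1.26, so neither has a stable direction. In macrophage/monocyte-like cells Il1b was 407, 450 and 348 CPM, that is, 1.11 for age (1.09 to 1.12) and 0.774 for treatment (0.763 to 0.784). They became 0.959 and 0.965 when the macrophage sub-clusters described below were given the same weights in every library. Neither ratio reached 1.5-fold. Thinned shares of macrophage/monocyte-like cells with Il1b were 28.9%, 31.3% and 25.6%, and 0.666% of thinned MuSC/myoblast-like cells had an Il1b UMI.

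Il1rn, the antagonist, was measured in 121603 UMIs and was higher in macrophage/monocyte-like cells (371 CPM) than in Dendritic-like cells (161 CPM) or any other compared class. Its macrophage level was 312, 486 and 323 CPM. The old PBS library was the highest, while the 2 others lay close together. These levels give 1.56 for age (1.54 to 1.58) and 0.664 for treatment (0.655 to 0.673). After thinning, 30.4%, 42.6% and 32.3% of macrophage/monocyte-like cells had an Il1rn UMI, against 0.499% of MuSC/myoblast-like cells. In Dendritic-like cells the same order was seen with larger ratios, at 97.3, 287 and 136 CPM, or 2.95 for age (2.70 to 3.23) and 0.472 for treatment (0.437 to 0.509). The summed level of 12 macrophage markers in the Dendritic-like class moved alongside, at 5536, 8378 and 6196 CPM. Of the 1589 Il1rn UMIs of Dendritic-like cells in old PBS, 911 lay in a sub-cluster of 64 cells led by Retnla and Fn1. The part of these cells and of the markers in the Il1rn values was not tested, and with sub-clusters at fixed weights the ratios were 1.76 and 0.587. FAP-like cells had 4.38, 7.12 and 4.11 CPM of Il1rn, or 1.63 for age (1.33 to 1.98) and 0.577 for treatment (0.470 to 0.707). Thinned FAP-like shares were 1.35%, 1.80% and 1.37%, against 0.499% in MuSC/myoblast-like cells, and no change is read from so low a level.

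The balance of Il1b to Il1rn transcripts followed from these levels. There were 1.30 Il1b UMIs for each Il1rn UMI in macrophage/monocyte-like cells of young PBS, but 0.925 in those of old PBS and 1.08 with rMETRNL. In Dendritic-like cells the figure was 21.9, 7.96 and 18.1, so that old PBS had the lowest ratio over each class as a whole. It was not the lowest in 5 of 12 macrophage/monocyte-like sub-clusters, such as the one led by Ccrl2 (1.05, 1.18 and 0.801), nor in the Dendritic-like ones led by Fscn1 (5.01, 5.67 and 6.30) and with Xcr1 and Clec9a among the leading genes, where Il1rn had 4, 5 and 35 UMIs and old rMETRNL was the lowest.

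**Figure D2:**
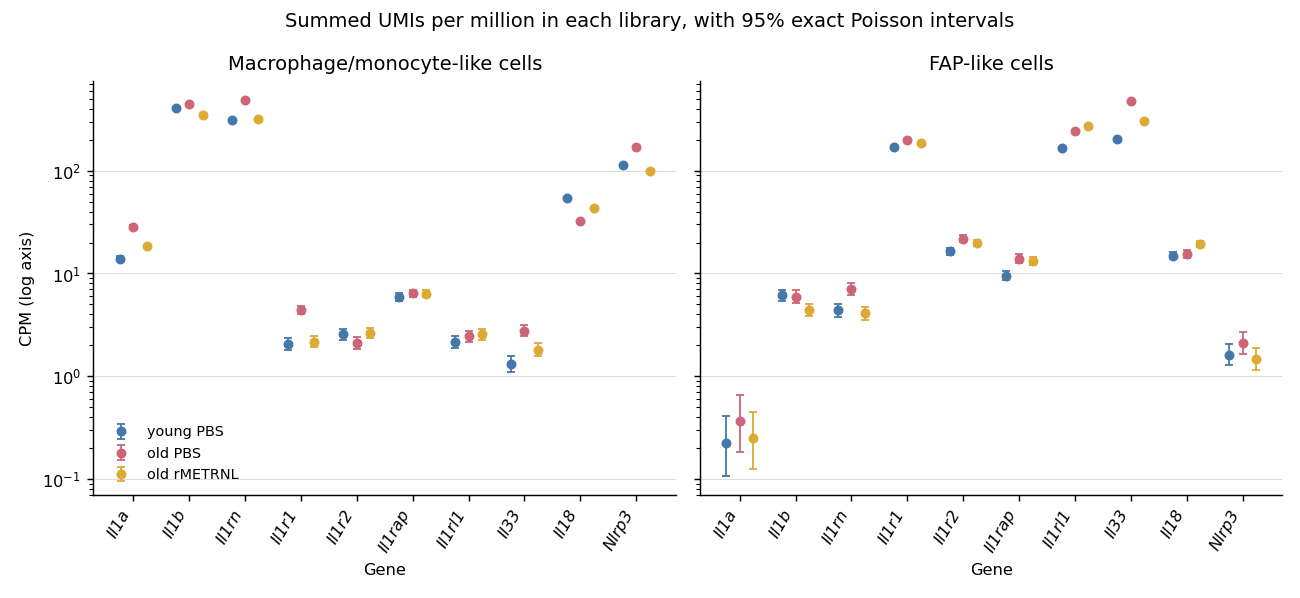
Level of each member in macrophage/monocyte-like cells (left) and FAP-like cells (right), in CPM on a log axis, with 1 point per library (blue, young PBS; red, old PBS; yellow, old rMETRNL) and bars for exact Poisson intervals. On the left Il1a, Il1rn and Nlrp3 are highest in old PBS and Il18 is lowest there, and on the right Il33 is highest in old PBS while Il1rl1 is highest in old rMETRNL.

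Nlrp3, the inflammasome sensor, was likewise highest in old PBS. In macrophage/monocyte-like cells it was 115 CPM (11143 UMIs), 172 CPM (16764 UMIs) and 100.4 CPM (11081 UMIs). Its age ratio of 1.499 (1.46 to 1.54) fell just short of 1.5-fold, and that for treatment was 0.583 (0.569 to 0.597). A Nlrp3 UMI was found in 16.7%, 24.5% and 15.7% of thinned macrophage/monocyte-like cells and in 0 of 601 thinned MuSC/myoblast-like cells (upper limit 0.612%). Dendritic-like cells overlapped them in level, at 67.7, 140 and 72.3 CPM, and gave 2.06 for age (1.84 to 2.31) and 0.518 for treatment (0.465 to 0.576). At fixed sub-cluster weights these became 1.45, under 1.5-fold, and 0.621. Of the 772 Nlrp3 UMIs in old PBS, 337 lay in a sub-cluster led by Retnla and Fn1, and the part of the macrophage markers given above for this class was not tested for Nlrp3 either.

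Il18 went the other way from Il1a, Il1rn and Nlrp3. Its level in macrophage/monocyte-like cells was 54.5 CPM (5289 UMIs), 32.2 CPM (3133 UMIs) and 43.6 CPM (4813 UMIs), so that old PBS was the lowest, and the intervals of the 3 libraries did not overlap. The ratios were 0.590 for age (0.565 to 0.617) and 1.36 for treatment (1.30 to 1.42). Thinned shares were 10.6%, 6.61% and 8.90% of these cells. MuSC/myoblast-like cells (11.5 CPM, 3.16% of thinned cells), FAP-like cells (16.8 CPM) and Dendritic-like cells (26.9 CPM) also had Il18, while Endothelial-like, T/NK-like and Tenocyte-like cells had 1.21 to 1.81 CPM. In FAP-like cells Il18 was 14.9, 15.4 and 19.6 CPM and in Dendritic-like cells 28.1, 21.3 and 29.3 CPM. In MuSC/myoblast-like cells, with 61 to 82 UMIs a library, it was highest in old PBS, at 10.6, 18.3 and 9.25 CPM.

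Across all 10 members in macrophage/monocyte-like cells, 5 were past 1.5-fold in the age contrast, where 12.0% of 13605 genes with at least 50 UMIs were. The 4 higher ones were Il1a, Il1rn, Il1r1 and Il33 (5.76% of all genes were higher) and the lower one was Il18 (6.22% lower). In the treatment contrast 5 of 10 were past 1.5-fold, all of them lower, namely Il1a, Il1rn, Nlrp3, Il1r1 and Il33. At fixed sub-cluster weights the counts were 3 for age (Il1a, Il1r1 and Il33) and 2 for treatment (Il1r1 and Il33), as Il1a (0.841), Il1rn (0.797) and Nlrp3 (0.745) came under 1.5-fold for treatment, and gating by marker UMIs gave 3 for treatment. The background there was 8.51% of 13774 genes, with 5.10% higher and 3.41% lower. The median log2 ratio of the members was 0.38 for age and -0.48 for treatment, against -0.01 and 0.05 over all genes. Il1r1 and Il33 are among these at low levels. Il1r1 was 2.06, 4.39 and 2.17 CPM in this class and Il33 1.31, 2.77 and 1.81 CPM, far below the levels of FAP-like cells. Their thinned shares (0.365%, 1.15% and 0.506% for Il1r1, and 0.348%, 0.700% and 0.337% for Il33) lie below those of T/NK-like cells (1.63% and 1.42%), although for Il1r1 that class includes cells which express it. FAP markers summed to 375, 338 and 377 CPM in macrophage/monocyte-like cells. In the 5 sub-clusters with enough UMIs Il1r1 was 1.59 to 2.22 for age and 0.415 to 0.685 for treatment. The part of free RNA in these values was not tested.

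**Figure D3:**
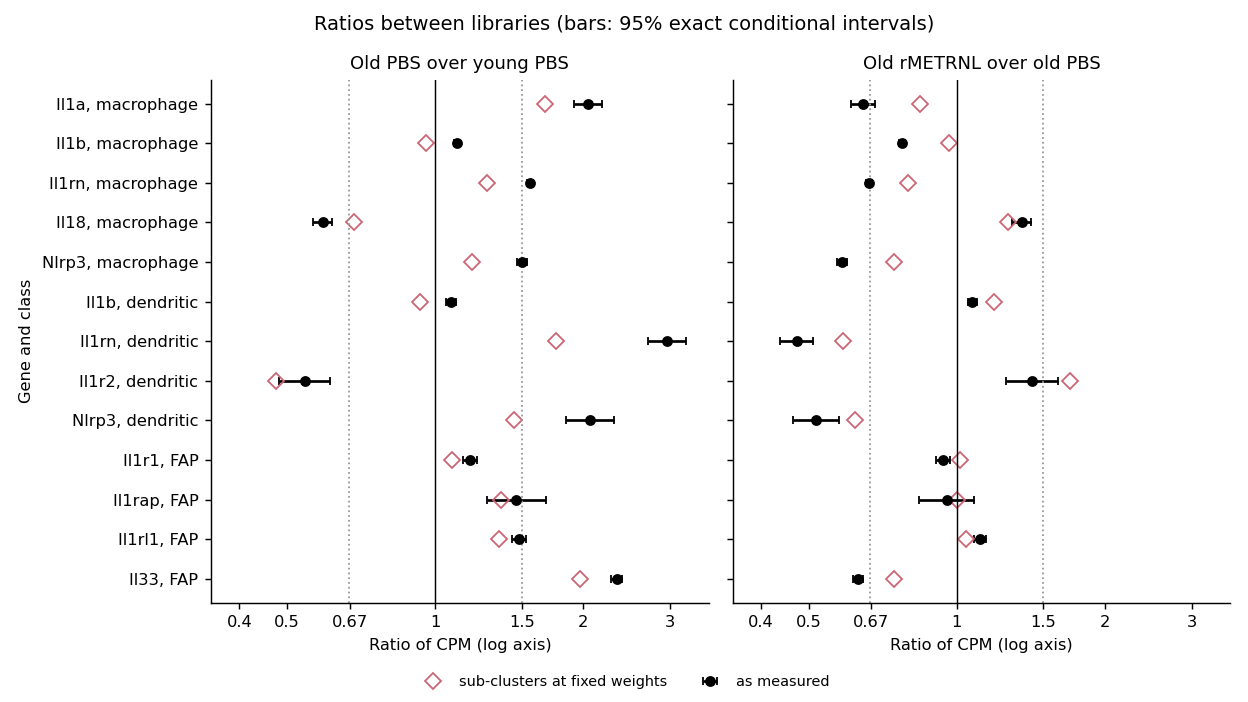
Ratio of CPM between libraries on a log axis for 13 pairs of gene and class, the age contrast on the left and the treatment contrast on the right, with black points for the values as measured (bars, exact conditional intervals), open diamonds for sub-clusters at fixed weights and dotted lines at 1.5-fold. Il1a, Il1rn and Nlrp3 in macrophage/monocyte-like cells and Il33 in FAP-like cells lie above 1 for age and below 1 for treatment, and Il18 in macrophage/monocyte-like cells lies on the opposite sides.

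A second round of clustering divided the macrophage/monocyte-like cells into 12 sub-clusters, over which the myeloid members were unevenly spread. A sub-cluster led by Il10, Hbegf and Cxcl2 had 1069 CPM of Il1rn, 411 CPM of Nlrp3 and 60.3 CPM of Il1a, each the highest of the 12. This sub-cluster made up 8.13%, 14.6% and 6.43% of the class, the largest share being that of old PBS. Another, led by Dnase1l3 and Vcam1, had 945 CPM of Il1b and 539 CPM of Il1rn and held 10.1%, 19.9% and 8.26% of the class. The monocyte-gene sub-cluster led by Ly6c2, Vcan and Hp had the highest Il1b of the class, 1474 CPM, with only 5.15 CPM of Il1a, and it was least frequent in old PBS (6.89%, 4.34% and 8.78%). At the other end, a sub-cluster led by Hes1 and Txnip had 37.1 CPM of Il1rn, 13.3 CPM of Nlrp3 and 2.86 CPM of Il1a but 76.2 CPM of Il18, and it counted 790, 284 and 422 cells. A sub-cluster led by Rnf128 and Spp1 had 75.6 CPM of Il1b and 21.1 CPM of Il18. The ratio of Il1b to Il1rn UMIs accordingly ran from 3.38 in the Hes1 sub-cluster to 0.338 in the Spp1 sub-cluster.

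**Figure D4:**
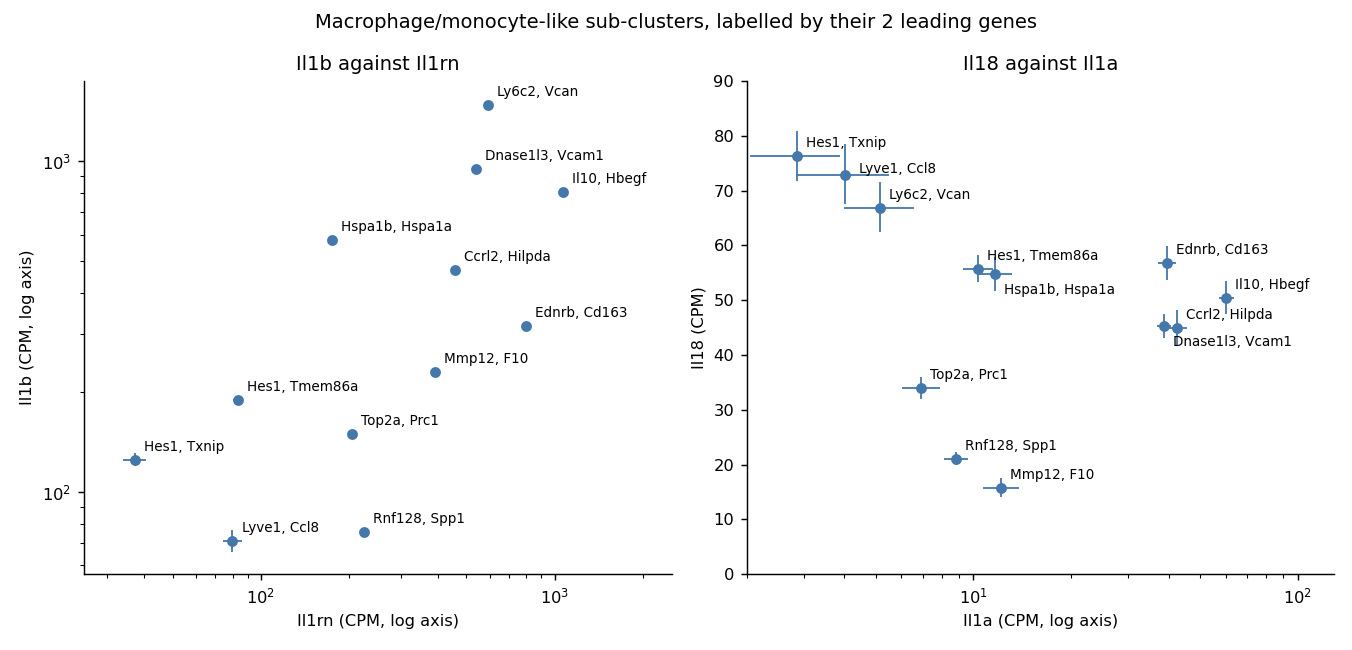
Levels in the 12 macrophage/monocyte-like sub-clusters over the 3 libraries together, each point labelled by its 2 leading genes, with Il1b against Il1rn on log axes (left) and Il18 on a linear axis against Il1a on a log axis (right), in CPM with exact Poisson intervals. Il1b is highest in the sub-cluster led by Ly6c2 (1474 CPM), Il1rn and Il1a in the one led by Il10 (1069 and 60.3 CPM), and Il18 in the one led by Hes1 and Txnip (76.2 CPM).

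Because the make-up of the class differed between libraries, the ratios were also read inside the sub-clusters. Il18 was lower in old PBS than in young PBS in 12 of 12 sub-clusters (ratios 0.523 to 0.885) and higher in old rMETRNL than in old PBS in 12 of 12 (1.09 to 1.57). Il1a was higher in old PBS in 9 of the 9 sub-clusters with enough UMIs (1.26 to 2.98), and in the treatment contrast 2 of 9 were above 1 (0.598 to 1.11). Il1rn was above 1 in 11 of 12 for age (0.983 to 2.27) and in 2 of 12 for treatment (0.650 to 1.41). Nlrp3 was above 1 in 11 of 12 for age and in 0 of 12 for treatment (0.419 to 0.905). With the same sub-cluster weights in every library, the age ratios were 1.67 for Il1a, 1.27 for Il1rn, 1.19 for Nlrp3 and 0.682 for Il18, and the treatment ratios 0.841, 0.797, 0.745 and 1.27. All kept their direction, but only that of Il1a for age stayed past 1.5-fold.

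Il1r1, Il1rl1 and Il33 had their highest compared levels in FAP-like cells. Il1r1, the signalling receptor, was 184 CPM in FAP-like cells, 61.2 CPM in Endothelial-like cells, 35.6 CPM in MuSC/myoblast-like cells and 29.3 CPM in Tenocyte-like cells, and no library of one of these classes overlapped a library of the next. In FAP-like cells it was 170, 199.7 and 187 CPM. These values give 1.18 for age (1.14 to 1.22), and the treatment ratio of 0.939 (0.908 to 0.970) became 1.02 with fixed sub-cluster weights. Il1r1 was met in 86.7%, 79.9% and 83.0% of FAP-like cells, or 28.2%, 26.3% and 30.02% after thinning, against 1.63% of T/NK-like cells. In Endothelial-like cells it was 52.1, 83.0 and 56.9 CPM, or 1.59 for age and 0.685 for treatment, although the share of cells with a UMI was lowest in old PBS (33.6%, 20.7% and 27.4%). Thinned shares there were 9.66%, 9.88% and 10.6%, and no order of the libraries is read from them.

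Il1r2, the decoy, was 102 CPM in Dendritic-like cells and 19.0 CPM in FAP-like cells, classes that held 38.1% and 39.0% of its UMIs. Dendritic-like cells had 129, 69.8 and 99.3 CPM, so old PBS was the lowest library. The level was 0.543 times as high for age (0.482 to 0.612) and 1.42 times for treatment (1.26 to 1.61). In FAP-like cells, at 16.4, 21.7 and 19.7 CPM, old PBS was instead the highest. Il1rap, the accessory chain shared by the IL-1 and IL-33 receptors, had the flattest distribution, with 12.0 CPM in FAP-like, 11.7 in Dendritic-like, 8.92 in T/NK-like and 7.63 in Endothelial-like cells, whose libraries overlapped from each class to the next. Its FAP-like level was 9.52, 13.9 and 13.3 CPM, or 1.46 for age (1.27 to 1.68) and 0.953 for treatment (0.839 to 1.08, which includes 1). Since thinned shares of 1.71%, 3.07% and 2.26% lie near the 2.03% of T/NK-like cells, its share of FAP-like cells is read no further.

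Among Dendritic-like cells 6 of 8 members with enough UMIs were past 1.5-fold in the age contrast, against 14.2% of 9158 genes. Il1rn, Nlrp3, Il1a, Il1rap and Il1rl1 were higher and Il1r2 lower. With sub-clusters at fixed weights, Nlrp3 (1.45) and Il1rl1 (1.15) came under 1.5-fold, the age ratio of Il1a turned to 0.842, and Il1rn, Il1rap and Il1r2 stayed past it. For treatment 4 of 8 were past it, all lower (Il1rn, Nlrp3, Il1rap and Il1a), against 9.11% of 9360 genes, and at fixed weights Il1rap (0.690) and Il1a (0.771) no longer were. Il1a rests on 23 to 30 UMIs a library, and its age interval (0.990 to 3.18) includes 1. Among 7 sub-clusters, the one led by Satb1, Plat and Cd209a had 4565 CPM of Il1b and 304 CPM of Il1r2. A sub-cluster with Xcr1 and Clec9a, markers of cross-presenting dendritic cells, among its leading genes had 18.1 CPM of Il1rn and 3160.5 CPM of Il1b. A sub-cluster led by Retnla and Fn1, with 30, 64 and 59 cells (4.55%, 14.8% and 7.96% of the class), had 656 CPM of Il1rn and 229.5 CPM of Nlrp3. No marker of the dendritic list is among its leading genes, and Fn1, Mmp12 and F10 among them also lead a macrophage/monocyte-like sub-cluster. Whether these are dendritic cells was not tested. The Fscn1 sub-cluster, whose leading gene marks migratory dendritic cells, had 839 CPM of Il1b and 14.8 CPM of Il1r2.

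As measured, Il33 had the age ratio farthest from 1 of any member in its leading class. At fixed sub-cluster weights that of Il1r2 in Dendritic-like cells (0.475) was farther from 1, by fold, than that of Il33 (1.97). In FAP-like cells Il33 stood at 206 CPM (9259 UMIs), 482 CPM (14345 UMIs) and 303 CPM (13365 UMIs), and the intervals (202 to 210, 474 to 490 and 298 to 308 CPM) were far apart. Old PBS was therefore 2.34 times young PBS (2.28 to 2.40), and old rMETRNL 0.629 times old PBS (0.615 to 0.644). An Il33 UMI was found in 23.9%, 38.2% and 28.2% of thinned FAP-like cells, against 1.42% of T/NK-like and 0.454% of macrophage/monocyte-like cells. Without thinning the shares were 67.1%, 73.5% and 64.7%. Macrophage markers summed to 581, 636 and 548 CPM in the FAP-like class. Il33 was next in Tenocyte-like cells (99.1 CPM), then MuSC/myoblast-like (23.7 CPM) and Myocyte-like cells (14.3 CPM), and the libraries of these 4 classes did not overlap from one to the next. Tenocyte-like cells showed another order, with 110, 71.8 and 100.3 CPM from 439, 123 and 370 UMIs. In MuSC/myoblast-like cells Il33 was 17.2, 26.4 and 29.4 CPM, with 26 of the 88 UMIs of old PBS in 1 cell. Endothelial-like cells had 3.76, 13.1 and 4.08 CPM from 34, 76 and 41 UMIs. Transcripts of other classes were also highest in old PBS there. Dcn was 14.6, 75.6 and 28.4 CPM, macrophage markers summed to 892, 1547 and 995 CPM and FAP markers to 857, 917 and 820 CPM. Median depth of the class was 11363, 3938 and 7239 UMIs. The part of these in its Il33 values was not tested.

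Il1rl1, the IL-33 receptor ST2, was in FAP-like cells as well, at 225 CPM, and overlapped Tenocyte-like cells at 183 CPM. Its FAP-like level was 165 CPM (7420 UMIs), 245 CPM (7282 UMIs) and 273 CPM (12011 UMIs). It was thus highest in old rMETRNL. The age ratio was 1.48 (1.43 to 1.53), under 1.5-fold, and that for treatment 1.11 (1.08 to 1.15). Thinned shares followed the same order at 13.8%, 16.9% and 20.8%. The count does not separate the membrane form of ST2 from its soluble form, since both come from this gene. In Tenocyte-like cells Il1rl1 was 170, 98.1 and 235 CPM, but a few cells carried it. In old PBS 11 cells held the 168 UMIs and 5 of them 86.3%, and in old rMETRNL 1 cell held 381 of 868 UMIs.

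In FAP-like cells 2 of 9 members with enough UMIs were past 1.5-fold in the age contrast, Il33 and Il1rn, both with ratios above 1, where 12.7% of 13432 genes were past it, 6.46% higher and 6.24% lower. In the treatment contrast the count was also 2 of 9, again Il33 and Il1rn, both with ratios below 1, against 8.73% of 13406 genes, 4.36% higher and 4.38% lower. Il1rn counts here at the low level from which no change is read. With doublet calls kept the counts were 4 and 4, and at fixed sub-cluster weights the treatment count was 1, as Il33 was 0.746. The members' median log2 ratio was 0.40 for age and -0.14 for treatment, against -0.04 and 0.02 over all genes. In Tenocyte-like cells 15.3% of genes were past 1.5-fold for age and 11.3% for treatment, and Il33 (0.655, 0.532 to 0.801) was below 1 for age.

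**Figure D5:**
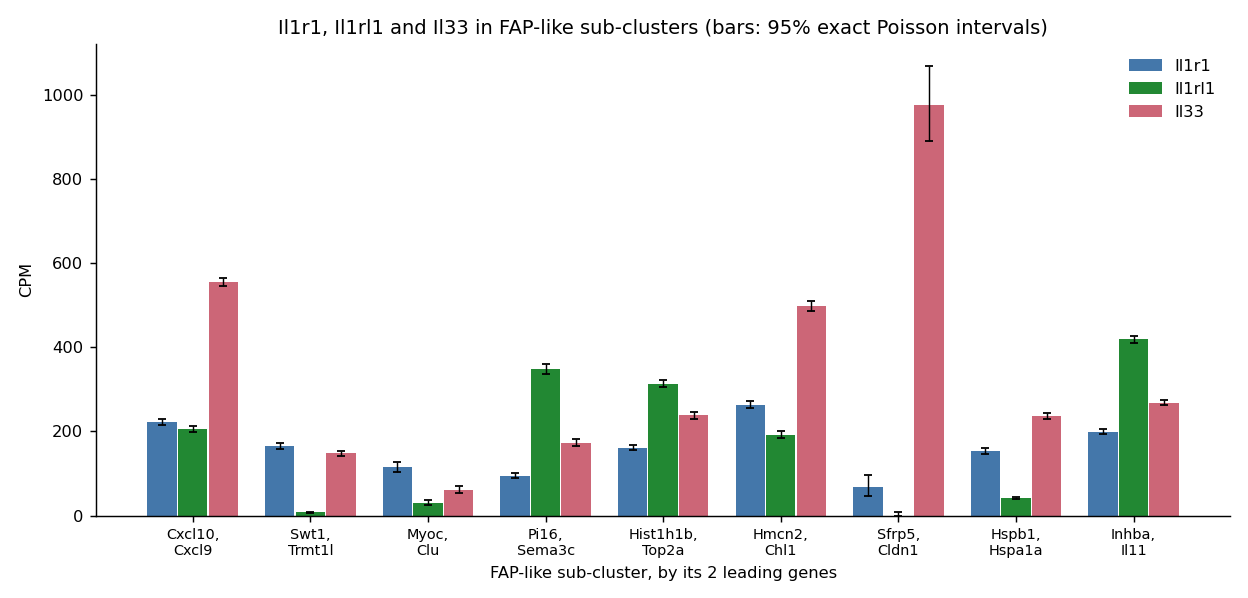
Levels of Il1r1 (blue), Il1rl1 (green) and Il33 (red) in the 9 FAP-like sub-clusters over the 3 libraries together, in CPM, each sub-cluster labelled by its 2 leading genes, with exact Poisson intervals as error bars. Il33 is highest in the sub-cluster led by Sfrp5 (977 CPM), which has 51 cells and where Il1rl1 is at 0 UMIs, and Il1rl1 in the one led by Inhba (419 CPM).

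Il33 and Il1rl1 were highest in different sub-clusters of the FAP-like class. Il33 was 977 CPM in a sub-cluster of 51 cells led by Sfrp5 and Cldn1, in which no Il1rl1 UMI was counted (upper limit of the interval 7.46 CPM). Its 5 leading genes, Itgb4, Tenm2 and Itga6 being the others, include no marker of the FAP list. The same holds for every other FAP-like sub-cluster except the one led by Pi16. The FAP list was the best-scoring marker list for these 51 cells, and what they are was not tested further. Among the other sub-clusters Il33 was 555 CPM in the one led by the interferon-induced chemokines Cxcl10 and Cxcl9, and 498 CPM in one led by Hmcn2 and Chl1. Il1rl1 in these was 206 and 192.5 CPM. Both held more of the class in old PBS, the first 16.5%, 24.8% and 15.4% and the second 7.25%, 20.7% and 11.7%. Il1rl1 instead was 419 CPM in the sub-cluster led by Inhba and Il11 (where Il33 was 269 CPM), 349 CPM in the one led by Pi16 and Sema3c, which mark progenitors of the adventitia, and 314 CPM in the dividing sub-cluster led by Hist1h1b and Top2a. It was 7.40 CPM in the sub-cluster led by Swt1 and 30.03 CPM in the one led by Myoc and Clu, where Il33 was 61.7 CPM. Within the Inhba sub-cluster Il1rl1 was 308, 474 and 518 CPM. Over the 8 sub-clusters with enough UMIs its ratio was above 1 in 7 for age, the exception being the Pi16 sub-cluster (0.797), and in 5 for treatment. The treatment ratios below 1 were 0.817 in the Cxcl10, 0.701 in the Hmcn2 and 0.553 in the Hspb1 sub-cluster. The Pi16 sub-cluster also had 65.3 CPM of Il18 and a lower Il1r1 (95.3 CPM) than the Hmcn2 sub-cluster (264 CPM). Il33 was above 1 in 9 of 9 sub-clusters for age (1.08 to 2.60) and in 1 of 9 for treatment (0.445 to 1.21). With fixed weights its ratios were 1.97 and 0.746, and those of Il1rl1 were 1.35 and 1.04.

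T/NK-like cells carried the third level of Il1rl1, 42.3 CPM, with 50.05, 29.2 and 49.8 CPM from 82, 42 and 42 UMIs. Few cells carried them, since the 5 highest held 47, 32 and 38 of these UMIs, and 1 cell of old rMETRNL held 21. Mast cell and basophil markers in the class summed to 607, 40.3 and 60.5 CPM, and their part was not tested. The stress and early response sum in the class was 3687, 812 and 3621 CPM, also lowest in old PBS, and its part was not tested either. Of the 166 Il1rl1 UMIs, 123 were in 1 sub-cluster of 101 cells led by Tnfrsf4 and Foxp3, at 276 CPM (230 to 330). Inside it, 21 cells had a UMI of Foxp3, the transcription factor of regulatory T cells, and none of Il5 or Il13, and they held 49 Il1rl1 UMIs. Another 14 cells had a UMI of Il5 or Il13, cytokines of group 2 lymphoid cells, and none of Foxp3, and they held 60. No cell had both, and the 66 cells with neither held 14 UMIs, a level of 49.6 CPM (27.1 to 83.2) against 561 (415 to 742) and 793 (605 to 1020) in the first and second sets. The UMIs lay in 9 of the 21, 11 of the 14 and 6 of the 66 cells. By library the first set had 4, 9 and 8 cells and the second 8, 5 and 1. The intervals treat UMIs as independent and do not cover this concentration in few cells. Il1r1 in this class was concentrated in a sub-cluster of 33 cells led by Cd163l1, Trdv4 and Trdc, genes of gamma delta T cells, at 130 CPM from 18 UMIs.

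Genes around the members were read from lists of the pathway. Of 22 genes known to respond to IL-1 in stromal cells, 9 were more than 1.5-fold higher and 1 lower in FAP-like cells of old PBS than of young PBS, with a median log2 ratio of 0.46, where all genes had -0.04 and 12.7% of them were past 1.5-fold. Csf3, the granulocyte growth factor, had the largest ratio, 5.55, from 43 and 158 UMIs, followed by the acute phase gene Saa3 (3.44) and the collagenase Mmp13 (2.53). In the treatment contrast 1 was higher and 2 lower, or 13.6% against 8.73% of all genes, with a median of -0.24 against 0.02, and the farthest from 1 were Ccl20 (4.45), Mmp13 (0.422) and Csf3 (0.466). Tenocyte-like cells, of which old PBS had 109, differed from FAP-like cells, with 0 higher and 6 lower of 17 for age (35.3% against 15.3% of all genes, median -0.31) and 7 higher and 1 lower of 19 for treatment (42.1% against 11.3%, median 0.21). Macrophage markers summed to 611, 1321 and 765 CPM in Tenocyte-like cells, and their sub-cluster led by Mmp13 and Slpi had 69, 22 and 33 cells. The part of either in these counts was not tested. In macrophage/monocyte-like cells 5 of 21 were higher and 1 lower for age (median 0.10; Saa3 4.20, Il6 2.46, Lif 0.429), that is, 28.6% against 12.0% of all genes, and 2 were higher and 2 lower for treatment (median -0.10; Lif 1.80, Saa3 0.608, Il6 0.611), 19.0% against 8.51%. The medians of all genes were -0.01 and 0.05 in this class. For age, more were higher than lower in further classes too. Counts were 7 and 1 of 13 in Dendritic-like, 6 and 1 of 14 in Endothelial-like and 9 and 0 of 13 in Myocyte-like cells. For treatment they were, in that order, 1 and 2 of 14, 0 and 3 of 14 and 1 and 8 of 13. MuSC/myoblast-like cells had 3 and 0 of 10 for age and 0 and 0 of 12 for treatment. T/NK-like cells had 1 and 3 of 9 for age and 1 and 0 of 8 for treatment.

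Of the 23 signalling genes, from Myd88 to Tnfaip3, 8.70% were past 1.5-fold for age in macrophage/monocyte-like and in FAP-like cells, a share near the 12.0% and 12.7% of all genes. In macrophage/monocyte-like cells 1 was higher and 1 lower for age, Tollip at 1.52 and Tab1 at 0.635, and none was past 1.5-fold for treatment, where Nfkb1 was 0.672 and Tnfaip3 0.699. In FAP-like cells Nfkb1 was higher (1.52) and Nfkbie lower (0.645) for age, and none was past the limit for treatment. Among inflammasome genes, 1 of 17 was lower in macrophage/monocyte-like cells for age, Txnip (0.425), whose product binds NLRP3, and 2 were higher for treatment, Txnip (1.65) and Nlrp1a (1.502). These shares of 5.88% and 11.8% compare with 12.0% and 8.51% of all genes. Pycard, the adaptor, was 1.32 for treatment. In FAP-like cells 1 of 10 was higher for age, Casp4 (1.54), against 12.7% of all genes, and none was past 1.5-fold for treatment. Of 12 further ligands and receptors of the family, 8 were in the files and 4 had enough UMIs in each of these classes. The IL-36 receptor gene Il1rl2 was 2.02 and the inhibitory receptor gene Sigirr 0.664 in macrophage/monocyte-like cells for age, and 0.669 and 1.31 for treatment. In FAP-like cells Il18rap was 1.54 for age, and none of the 4 was past 1.5-fold for treatment.

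The genes most like each member were ranked by Pearson's r of log2(CPM + 1) over the 24 points of 8 classes in 3 libraries, among 13341 genes. These points share libraries and class depth, and the values are a description. Nlrp3 was nearest to Ptafr (0.988), Il1rn to Cybb (0.984), Il1a to C3ar1 (0.975) and Il1b to Cd86 (0.973), all genes of myeloid cells. Il33 was nearest to Bicc1 (0.973) and to the collagen genes Col3a1 (0.970) and Col5a1 (0.968). Il1r1 was nearest to Nhsl1 (0.958), Il1r2 to Cldn1 (0.952), Il18 to Vill (0.939) and Il1rl1 to Eya2 (0.934). Il1rap had no close neighbour, its highest value being 0.788 with Arih1.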

How the data were processed

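Single-cell 3′ RNA libraries (10x Genomics) of 3 groups were analysed, 1 library each of cells pooled from several mice. The deposited values are raw UMI counts per gene and barcode, which the authors made with Cell Ranger, software that aligns reads, counts UMIs and calls cells. The submitters' processing notes name versions 5.0.0 and 3.1.0 and the build mm10, while the study's methods name another version, and which version made these counts was not settled. No column was left unused.

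A barcode was kept if it had 500 or more genes and less than 10% of its UMIs from mitochondrial genes, which with doublet removal left 31805 of 38748. Doublets were scored with Scrublet in scanpy 1.11.5 and the highest scores were removed at a rate of 0.8% per 1000 barcodes (1179, 1261 and 1559 cells per library, in the order used throughout). The automatic threshold called 175, 155 and 308. The cells were clustered with Leiden at resolution 0.8 on 2000 variable genes, 30 principal components and 20 neighbours, with the 10 members left out. No integration was applied, as each group is its own library, so a cluster found mainly in 1 library could be a property of that library. Clusters were named from marker lists, and the conditions for a name were set after the cluster tables were seen. They left 2.74%, 3.34% and 3.18% of cells unnamed, 983 in all, of which 650 carried macrophage genes.

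UMIs were summed per class and library and given as CPM with exact Poisson intervals. Ratios have the exact interval conditional on the sum of both counts, and shares of cells have Clopper-Pearson intervals in the tables. All intervals are at 95% and cover counting error only. A gene was past 1.5-fold only where both libraries of a contrast summed to 50 UMIs or more, and percentages of all genes past it use the same rule. No p-value was computed. Shares of cells were also counted after thinning each cell to 2000 UMIs, which left out 112, 200 and 180 macrophage/monocyte-like cells and 7, 26 and 31 FAP-like cells. Background shares came from MuSC/myoblast-like cells for Il1a, Il1b, Il1rn, Il1r2, Il1rl1 and Nlrp3 (and for Il18, which they express), and from T/NK-like cells for Il1r1, Il1rap and Il33 (a few of them express Il1r1), with macrophage/monocyte-like cells beside them for Il33. The median depth of these classes was 25797, 24267 and 23498.5 UMIs for MuSC/myoblast-like, 5810, 5806 and 5050.5 for T/NK-like and 14176, 14833.5 and 14410 for macrophage/monocyte-like cells.

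The members, gene lists and markers were chosen with earlier results of these data known. All members are named, and of each list the 3 genes farthest from 1 are the candidates for naming. Scripts ran in Python 3.11.15, using scipy 1.17.1 for intervals, igraph 0.11.9 for clustering and numpy 2.4.6 and pandas 2.3.3 for tables. The ratio and its interval were tested on simulated counts drawn from the counting model that the interval assumes. Spread between cells or mice was not simulated, so this checks the calculation only. Coordinates are those of GRCm38 and promoter sequences those of RefSeq for GRCm38.p6.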

Additional observations from a re-analysis of the deposited data

Results flagged for a closer look

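The age contrast of Il33 lay on opposite sides of 1 in different classes. The ratio of old PBS to young PBS was 2.34 in FAP-like cells and 1.53 in MuSC/myoblast-like cells, but 0.655 in Tenocyte-like cells, where old PBS had 109 cells and 123 Il33 UMIs. Few cells held these counts in old PBS, with 26 of 88 UMIs in 1 MuSC/myoblast-like cell and 62 of 123 in 5 Tenocyte-like cells. The sum of 12 macrophage markers in Tenocyte-like cells was 611, 1321 and 765 CPM in young PBS, old PBS and old rMETRNL, and its part in the Il33 values was not tested. For Il18 the age ratio was 1.73 in MuSC/myoblast-like cells, from 82 UMIs in 247 young PBS cells and 61 UMIs in 123 old PBS cells. It was 0.590 in macrophage/monocyte-like cells. With 1 library per group, neither difference was tested.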

How the results depend on the processing

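Of 20 ratios, an age and a treatment ratio for each member in its leading class, 16 kept their direction under all 11 alternatives, including all 9 that were past 1.5-fold. Gating by marker UMIs, 1 of these alternatives, acted on macrophage/monocyte-like and FAP-like cells only. For Il1b and Il1r2 in Dendritic-like cells it repeats the main value. The exceptions are Il1b in Dendritic-like cells in both contrasts (0.918 to 1.25 and 0.981 to 1.26) and, for treatment, Il1r1 and Il1rap in FAP-like cells (0.928 to 1.02 and 0.885 to 1.05). Past 1.5-fold throughout were 2, Il1a in macrophage/monocyte-like cells (1.67 to 2.08) and Il33 in FAP-like cells (1.97 to 2.41), both for age. Nlrp3 for age ran from 1.19 to 1.55.

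The counts of members past 1.5-fold (5 for age and 5 for treatment in macrophage/monocyte-like cells, 2 and 2 in FAP-like cells, 9 of the 20 ratios) moved as follows. With doublet calls kept, FAP-like cells had 4 for age and 4 for treatment. With macrophage/monocyte cells gated by marker UMIs, treatment had 3. The mean of per-cell CPM gave 1 for treatment in FAP-like cells, and dividing by the median ratio of the class gave 4 for age there. At 2-fold the counts were 3 and 1 in macrophage/monocyte-like and 1 and 0 in FAP-like cells. With sub-clusters at fixed weights, chosen after seeing the data, macrophage/monocyte-like cells had 3 for age and 2 for treatment, FAP-like cells 1 for treatment, and 4 of the 20 ratios were past it, Il1a, Il33 and Il1r2 for age as before and Il1r2 for treatment (1.70), which had not been. Without sub-clusters led by Hspa1a, also chosen after seeing the data, the counts were 5, 4, 2 and 3, and 8 of the 20. Apart from the sub-cluster weights and the fold, which act by construction, the cause of these moves was not tested.

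No paired analysis was possible because each group has 1 library, so there was no replicate to leave out. Depth limits members with few UMIs, such as Il1a outside macrophage/monocyte-like cells.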

Other observations

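Classes too small to compare held strong levels of some members. Among 68 Neutrophil-like cells (12, 24 and 32 in the order young PBS, old PBS, old rMETRNL), Il1b was 3472, 4859 and 3833 CPM from 106, 378 and 315 UMIs. The decoy receptor Il1r2 was 1343, 887 and 876 CPM there, from 41, 69 and 72 UMIs. Il1rn was 917, 887 and 1862 CPM from 28, 69 and 153 UMIs, and Nlrp3 was 164, 399 and 730 CPM from 5, 31 and 60 UMIs. In Pericyte/smooth muscle-like cells (84, 106 and 86 cells) Il1r1 was 181, 252 and 282 CPM from 134, 151 and 158 UMIs, and Il33 had 10, 31 and 2 UMIs. The neutrophil and pericyte values rest on few cells and are not compared between groups.

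In T/NK-like cells of old rMETRNL, 84 of 112 Il1b UMIs lay in 1 cell, and in Tenocyte-like cells of old PBS 27 of 53 Il1b UMIs did.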
